A study of Homo sapiens with 2 samples.

Results

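The genes described here encode the subunits of the mitochondrial respiratory chain and of the ATP synthase that lie in the nucleus, together with the complex I assembly factors whose symbols begin with NDUFAF. They were chosen by name: every gene in both deposited files whose current NCBI symbol, looked up by its Entrez identifier, begins with NDUFA, NDUFB, NDUFC, NDUFS, NDUFV, UQCR, COX4I, COX5, COX6, COX7, COX8 or ATP5, or is SDHA, SDHB, SDHC or SDHD, with pseudogenes left out. This gave 102 of 27685 genes, 98 of them protein coding and 4 long noncoding RNAs. NDUFA4 and NDUFA4L2 are listed as COXFA4 and COXFA4L2 in the RefSeq table used for names, and both were kept under their older symbols.

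RNA from PLC/PRF/5, an established line of human hepatocellular carcinoma cells, was sequenced after 24 h in the solvent DMSO or after 24 h in 6 µM JIB-04, a small-molecule inhibitor of the Jumonji histone demethylases. The labels name no genetic change in either group, and each group was 1 library, so treatment and library cannot be told apart, and no test across replicates was possible. The control is named DMSO in its title and untreated in its treatment label, and was taken as DMSO. The libraries held an estimated 28187793 fragments (DMSO) and 23721989 fragments (JIB-04). All 12 of the hepatocyte and liver carcinoma markers were listed at a TPM of at least 1 in at least 1 library, with summed levels of 9509 TPM (DMSO) and 6032 TPM (JIB-04). The keratins KRT8 and KRT18 made that difference, since the other 10 markers summed to 1813 and 1906 TPM, 5 of them higher and 5 lower in JIB-04. Of the other cell types, the endothelial markers summed to 0.538 and 0.331 TPM, the leukocyte list held CD68 at 97.0 and 137 TPM with PTPRC and CD3E at or near 0, and the fibroblast list held COL1A1 at 16.0 and 10.6 TPM with COL1A2 and PDGFRB at or near 0. The part of these marker differences in the values below was not tested.

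In respiration, complexes I and II pass electrons from NADH and succinate to ubiquinone, complex III hands them on to cytochrome c, and complex IV (cytochrome c oxidase) passes them to oxygen. Complexes I, III and IV pump protons in doing so, and complex V, the ATP synthase, lets the protons flow back through a rotating ring of c subunits to make ATP. Low oxygen is known to switch some of these subunits, with COX4I2 taking the place of COX4I1 and NDUFA4L2, a paralog of NDUFA4, induced through the HIF-1 transcription factor.

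Most of the genes stood below their DMSO level after JIB-04, by less than 2-fold. Levels are in TPM, the share of a transcript among all transcripts after correction for length, summed over the transcripts of a gene. The log2 ratio is that of TPM + 1 in JIB-04 over TPM + 1 in DMSO, and 96 of the 102 genes reached 1 TPM in at least 1 library and were described. Summed over all members, the level was 22093 TPM in DMSO and 18928 TPM in JIB-04, that is 2.21% and 1.89% of the summed TPM of all listed genes. A TPM is relative, so fewer transcripts per cell and more transcripts of other genes cannot be told apart, nor can fewer expressing cells and less RNA per cell. The median log2 ratio of the 96 genes was -0.30 with quartiles of -0.59 and -0.08. The median of all 14450 described genes was -0.15 with quartiles of -0.51 and 0.25.

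A log2 ratio below 0 was found for 80 of the 96 genes (83.3%), against 60.3% of all described genes. Only 1 member (1.04%) was at least 2-fold higher, against 5.99% of all described genes, and 8 members (8.33%) were at least 2-fold lower, against 6.88%. Of these 8, 4 had an interval wholly below -1, namely the readthrough NDUFC2-KCTD14, NDUFAF4, ATP5MC1 and ATP5MC3. The same 4 stayed past 2-fold when both libraries were scaled to the median of well-expressed genes. NDUFC2-KCTD14 shares all its exonic bases, rests on an estimated 75 and 1 fragments, and was at -0.60 with a pseudocount of 5. The share past the 2-fold limit downward lay near that of all genes. At or below the lower quartile of all ratios lay 28 members (29.2%), also near the share that defines a quartile. At or above the upper quartile lay 5 members (5.21%), well below that share. The 95% counting-error interval, an exact binomial interval on the estimated fragments of both libraries, lay wholly below 0 for 65 members (67.7%), against 46.3% of all genes, and wholly above 0 for 10 members (10.4%), against 28% of all genes. Members are abundant, with a mean of at least 50 TPM for 77 of the 96, so their intervals are narrow, and these intervals leave out every difference between cultures and library preparations. The levels in both libraries had a Pearson's r of 0.976 for log2(TPM + 1) across the 96 genes, which are not independent replicates. The levels span a wide range, from 1.43 to 1174 TPM in DMSO, over which r is readily high. The plot of levels in both libraries shows them along the diagonal.

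**Figure D1:**
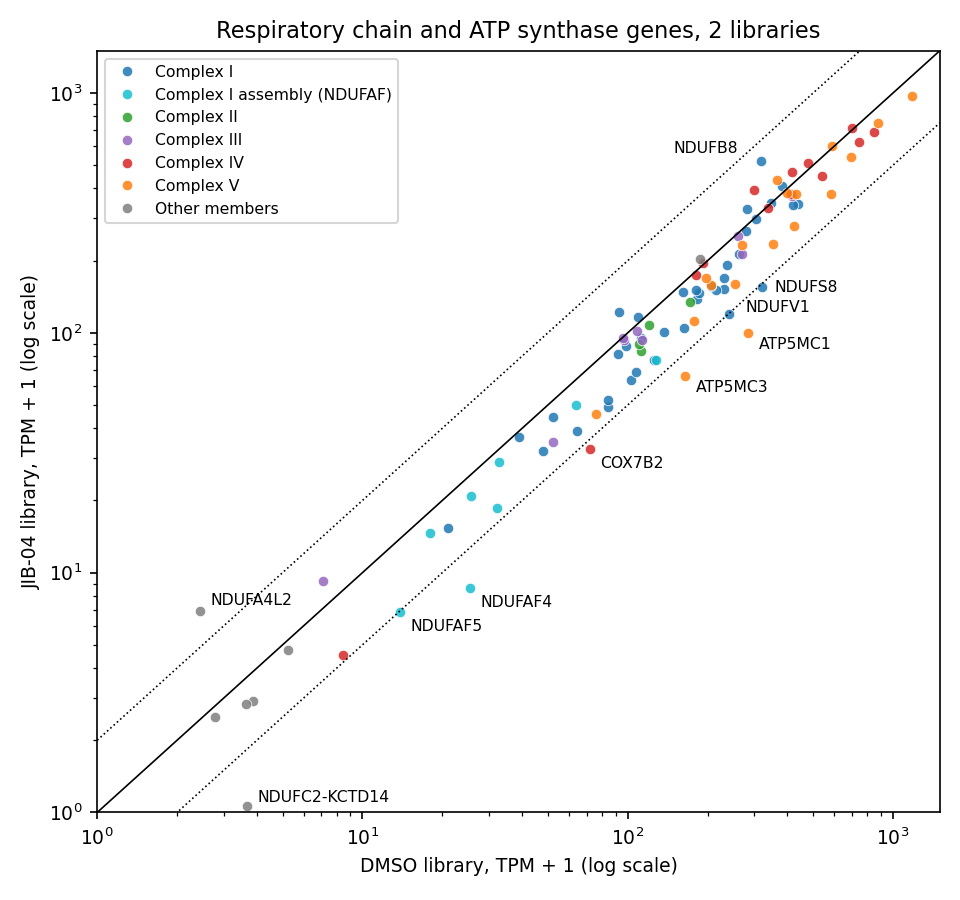
TPM + 1 of the 96 described members in the DMSO library (x axis) and the JIB-04 library (y axis), both on log scales, 1 point per gene coloured by complex. The solid line marks equal levels and the dotted lines a 2-fold difference of TPM + 1. NDUFA4L2 is the 1 gene above the upper dotted line, and 8 genes lie below the lower one.

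The complexes differed in how far their members stood from 0. In order of the median log2 ratio, the 18 described genes of complex V had -0.37, the 37 of complex I -0.34, the 4 of complex II -0.32, the 9 of complex III -0.09 and the 13 of complex IV -0.06. The value of complex III counts UQCRHL, an intronless copy (0.37), and leaves out its catalytic subunit CYC1 (-0.68), which falls outside the symbol rule. The 8 NDUFAF assembly factors stood lower than any complex, with a median of -0.55. The summed level of complex V was 7496 TPM in DMSO and 5973 TPM in JIB-04, a ratio of 0.797. That of complex I was 6922 and 5897 TPM, a ratio of 0.852, and that of complex IV was 5221 and 4952 TPM, a ratio of 0.949. That scaling, to genes with at least 10 TPM in both libraries, shifted log2 ratios upward by 0.15, which turned the medians of complexes III and IV to 0.06 and 0.09 and left those of complexes I, II and V below 0. The genes within a complex are not replicates of a condition, and the order of the complexes has no test.

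**Figure D2:**
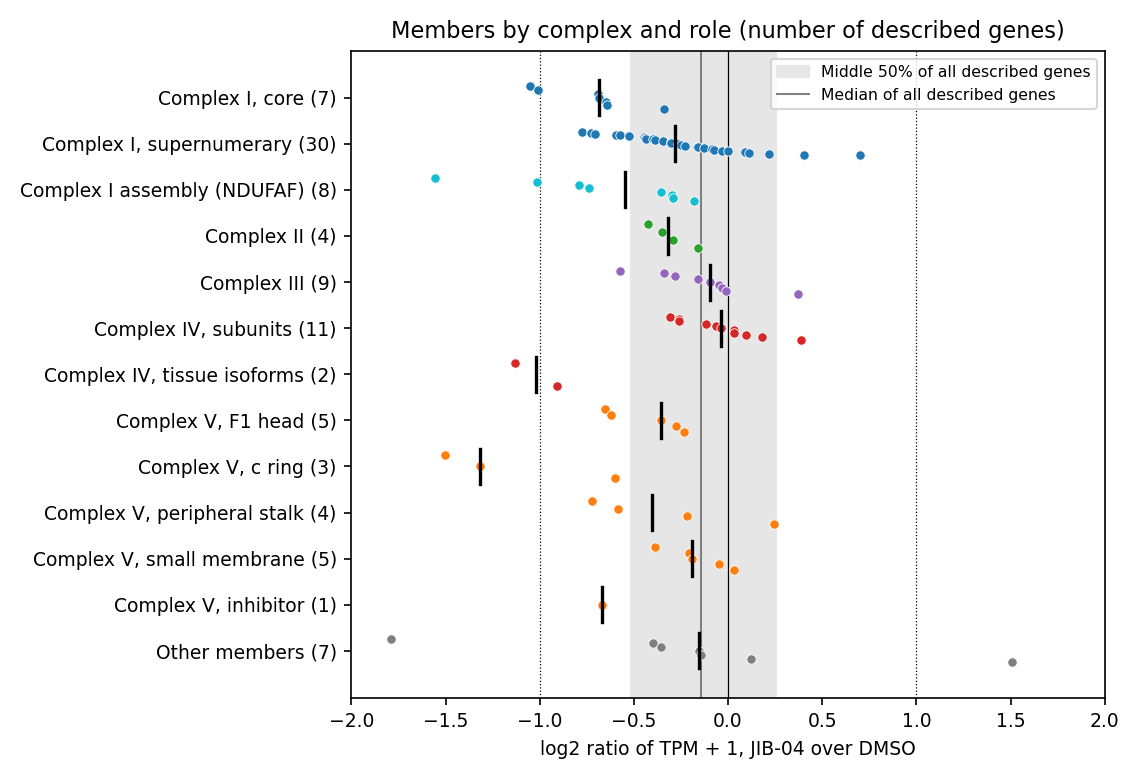
log2 ratio of TPM + 1, JIB-04 over DMSO, for each described member (points), grouped by complex and role with the number of genes in parentheses. Black bars are group medians, the grey band and grey line are the middle 50% and the median of all 14450 described genes, and dotted lines mark 2-fold. The medians of the core subunits of complex I (-0.68), the NDUFAF factors (-0.55) and the c ring (-1.32) lie to the left of the grey band. So do those of the complex IV tissue isoforms (-1.02, 2 genes) and the complex V inhibitor (-0.67, 1 gene).

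Complex I, the NADH dehydrogenase, is built from catalytic core subunits and a larger number of supernumerary subunits around them. The 7 nuclear-encoded core subunits carry the flavin and the iron-sulfur clusters or help form the quinone site. All 7 were lower in the JIB-04 library, against 60.3% of all described genes. Their log2 ratios ran from -1.05 to -0.34, with a median of -0.68. Their summed level was 1450 TPM in DMSO and 902 TPM in JIB-04. The 30 supernumerary subunits had a median of -0.28, with 24 of the 30 below 0, against the same 60.3%. None of them passed 2-fold, against 6.88% of all described genes downward and 5.99% upward. Their summed level was 5472 and 4995 TPM. The core subunits came to 0.622 of their DMSO level and the supernumerary subunits to 0.913.

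NDUFS8, an iron-sulfur subunit near the quinone site (chromosome 11 of hg19, 67798084 to 67804114), was at 320 TPM in DMSO and 154 TPM in JIB-04 (log2 ratio -1.05, interval -1.15 to -0.96). NDUFV1, which binds NADH and the flavin (chromosome 11, 67374323 to 67380012), was at 239 and 119 TPM, a ratio of -1.01 (interval -1.08 to -0.93). Both intervals reach across -1, so counting error alone leaves unsettled on which side of 2-fold they lie. NDUFS3 was at 102 and 62.5 TPM (-0.69), NDUFS7 at 83.1 and 51.3 TPM (-0.68), and NDUFS1, the largest iron-sulfur subunit, at 107 and 67.7 TPM (-0.65). These 3 subunits had nearly the same ratio. NDUFV2, an iron-sulfur subunit and in DMSO the most abundant complex I gene, had the ratio nearest 0 among the core, at 437 and 345 TPM (-0.34, interval -0.41 to -0.28).

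Among the supernumerary subunits the lowest ratios belonged to NDUFB6, at 83.1 TPM in DMSO and 48.2 TPM in JIB-04 (-0.77), NDUFV3, at 63.6 and 38.1 TPM (-0.73), and NDUFA7, at 125 and 76.2 TPM (-0.71). At the other end NDUFB8, a subunit of the membrane arm whose protein is often used as a readout of assembled complex I (chromosome 10, 102283486 to 102289680), was at 318 TPM in DMSO and 517 TPM in JIB-04 (log2 ratio 0.70, interval 0.63 to 0.77). NDUFB8 was the most abundant complex I gene in JIB-04 and by the mean of both libraries, and its ratio was the highest of any structural subunit of the 5 complexes, at percentile 89.6 of all described genes. NDUFC1 was at 91.3 and 121 TPM (0.40, interval 0.28 to 0.52), and NDUFA1, a membrane subunit encoded on the X chromosome, at 281 and 327 TPM (0.22, interval 0.12 to 0.32). NDUFS5 followed at 379 and 410 TPM (0.11, interval 0.03 to 0.19). NDUFB2 stood at 347 TPM in both libraries, with an interval from -0.09 to 0.09. RefSeq names 3 pseudogenes of NDUFB8 and none of NDUFC1 or NDUFA1, and the sources used here do not say how reads shared with such copies were assigned.

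The transcripts of NDUFC1 differed in their shares as well. The transcript NM_001184991 held 62.8% of the gene's TPM in DMSO and 34.2% in JIB-04, and NM_001184987, which starts further upstream, held 22.1% and 34.3%. In TPM the former was at 57.3 and 41.4 and the latter at 20.1 and 41.5. By the most abundant transcript alone the ratio of NDUFC1 was therefore -0.46, the opposite direction from the gene. These transcripts share most of their bases, and their levels are StringTie's estimates from reads that can belong to several of them.

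**Figure D3:**
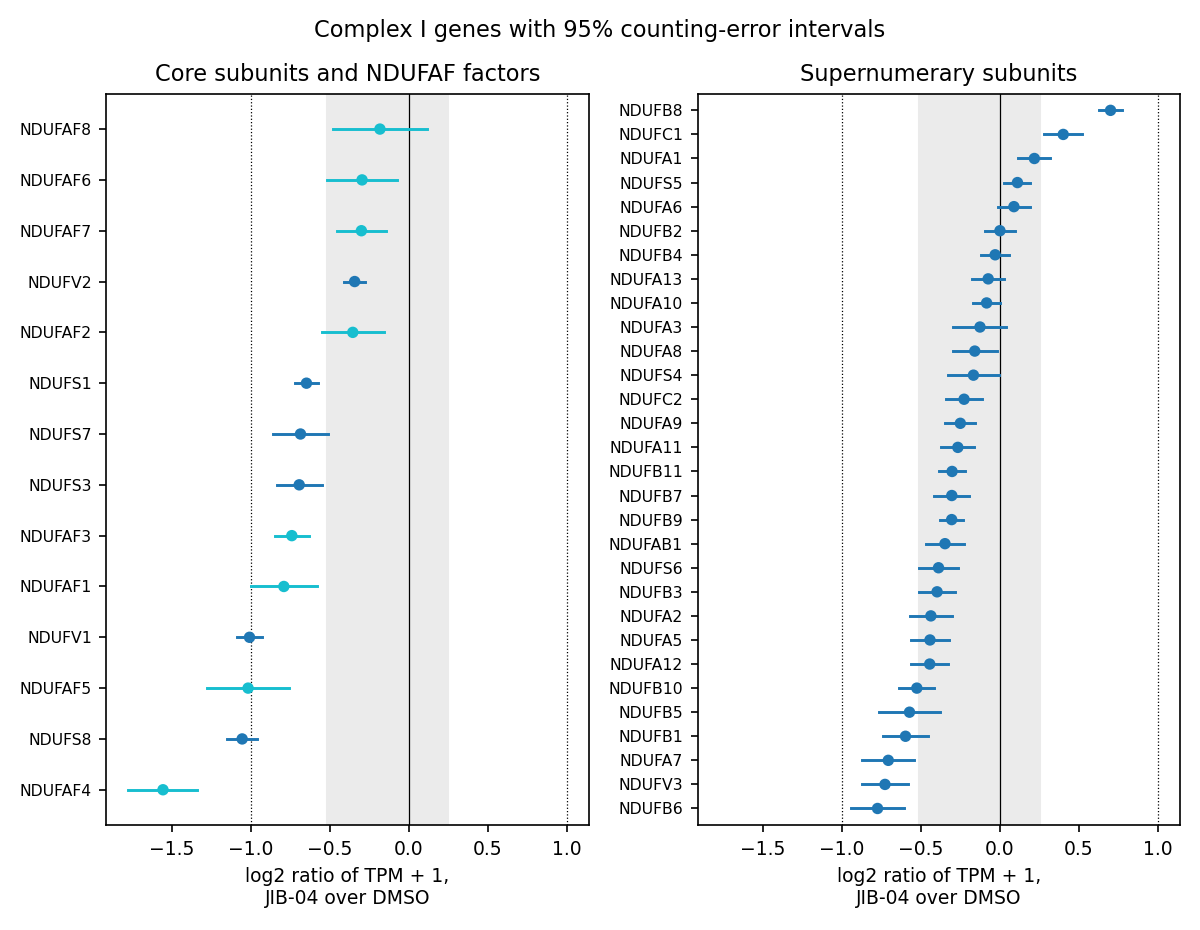
log2 ratio of TPM + 1, JIB-04 over DMSO, for the core subunits of complex I (dark blue) and the NDUFAF factors (light blue) on the left and for the supernumerary subunits on the right. Points are genes, horizontal bars their 95% counting-error intervals, the grey band the middle 50% of all described genes, and dotted lines mark 2-fold. All genes shown on the left have ratios below 0, while NDUFB8 stands apart at the top right.

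The NDUFAF genes encode factors that help to build complex I and are not part of the finished enzyme. All 8 were lower in the JIB-04 library, against 60.3% of all described genes, and 2 of the 8 passed 2-fold downward, against 6.88%. NDUFAF4, which acts with NDUFAF3 on the module that holds the quinone site (chromosome 6, 97337187 to 97345767), was at 24.4 TPM in DMSO and 7.65 TPM in JIB-04 (log2 ratio -1.55, interval -1.77 to -1.34), the lowest value of any member that shares no exons with another gene. NDUFAF5, which modifies an arginine of NDUFS7 (chromosome 20, 13765672 to 13799067), was at 12.8 and 5.85 TPM (-1.02, interval -1.27 to -0.76). NDUFAF1, a factor of the membrane arm, was at 31.2 and 17.6 TPM (-0.79), and NDUFAF3 at 127 and 75.9 TPM (-0.74). The other four lay between -0.35 and -0.18, with NDUFAF8, at 31.7 and 27.8 TPM, the 1 factor whose interval (-0.48 to 0.12) held 0.

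Assembly factors outside the symbol rule were read from a list of genes for each complex. Of the 12 further complex I factors 11 were below 0 and 3 passed 2-fold downward (median -0.67). COA1, which acts early on complexes I and IV, was at 110 TPM in DMSO and 38 TPM in JIB-04 (-1.51, interval -1.63 to -1.38), TMEM126A at 64.4 and 29.4 TPM (-1.10) and FOXRED1 at 51.0 and 23.3 TPM (-1.10). DMAC1, at 8.59 and 9.41 TPM, was the 1 gene above 0 (interval -0.12 to 0.35). Of the 26 complex IV factors 23 were below 0, with a median of -0.54, although the 11 ubiquitous complex IV subunits had a median of -0.04. COA7 was at 29.6 and 13.3 TPM (-1.10) and COX19, a copper-handling factor, at 12.3 and 22.0 TPM (0.79, interval 0.66 to 0.92). Among the 6 complex III factors BCS1L, which inserts the Rieske protein, was at 35.8 and 15.3 TPM (-1.17), and TTC19 at 30.3 and 39.2 TPM (0.36). SDHAF4 was at 25.4 and 12 TPM (-1.02) while the complex II factor SDHAF1 was at 30.4 and 42.8 TPM (0.48). The 4 genes listed as ATP synthase factors ran from ATPAF1, at 33.2 and 20.8 TPM (-0.65), to ATPAF2, at 14.2 and 21.6 TPM (0.56). TMEM70, listed here with complex I only, was at 47.4 and 28.0 TPM (-0.74, interval -0.88 to -0.60). With the NDUFAF genes included, 60 assembly factors were described, of which 51 were below 0 (85%, against 60.3% of all described genes), 8 passed 2-fold downward (13.3%, against 6.88%) and 0 upward (against 5.99%). Their median was -0.55, against -0.15 for all described genes.

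Complex II, succinate dehydrogenase, was lower in the JIB-04 library in all 4 of its subunits, within a narrow range. Of all described genes, 60.3% were lower. The flavoprotein SDHA was at 109 TPM in DMSO and 89.0 TPM in JIB-04 (-0.29, interval -0.36 to -0.21), and the iron-sulfur protein SDHB at 171 and 134 TPM (-0.35, interval -0.44 to -0.26). The membrane anchor SDHC was at 120 and 107 TPM (-0.16, interval -0.23 to -0.09), and the other anchor, SDHD, at 111 and 82.8 TPM (-0.42, interval -0.53 to -0.32). All 4 intervals lay below 0, against 46.3% of all described genes, and the ratio of SDHC was close to the median of all genes. The SDHA transcript NM_001294332 held 13.6% of the gene's TPM in DMSO and 0.117% in JIB-04, that is an estimated 466 and 3 fragments. These values are StringTie's estimates from reads that can belong to several of the 3 SDHA transcripts. RefSeq also names 4 pseudogenes of SDHA.

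The members of complex III by the symbol rule, with UQCRHL counted and CYC1 left out, had a median of -0.09. Its core proteins UQCRC1, at 258 TPM in DMSO and 253 TPM in JIB-04 (-0.03), and UQCRC2, at 95.1 and 94.3 TPM (-0.01), had intervals that held 0. UQCRFS1, the Rieske iron-sulfur protein, was at 269 and 213 TPM (-0.34, interval -0.41 to -0.27). UQCRB, which helps form a ubiquinone site, was the lowest at 51.2 and 34.0 TPM (-0.58, interval -0.66 to -0.49), and UQCRH, the hinge protein and the most abundant of the complex, was at 415 and 372 TPM (-0.16). UQCR10 was at 113 and 92.3 TPM (-0.28), whereas UQCRQ and UQCR11 had intervals that held 0. UQCRHL, an intronless copy of UQCRH, was listed at 6.12 and 8.21 TPM, 1.45% and 2.16% of the pair's summed TPM (exact intervals 1.03 to 1.98% and 1.57 to 2.90%), and its ratio of 0.37 had an interval from -0.21 to 0.94. Reads of the near-identical pair may be split in either direction. Cytochrome c1, the remaining catalytic subunit of complex III, falls outside the symbol rule, and its gene CYC1 was at 194 and 121 TPM (-0.68, interval -0.77 to -0.59), while CYCS, cytochrome c itself, was at 89.9 and 86.6 TPM (-0.05).

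Complex IV had the summed level nearest to that of DMSO among the 5 complexes. The 11 ubiquitous subunits ran from -0.31 to 0.39, with 5 above 0 and 6 below, where 60.3% of all described genes were below. COX4I1, the usual form of subunit 4 (chromosome 16, 85833173 to 85840609), was at 299 TPM in DMSO and 391 TPM in JIB-04 (log2 ratio 0.39, interval 0.31 to 0.46). COX5B was at 414 and 469 TPM (0.18, interval 0.10 to 0.26) and COX7B at 478 and 510 TPM (0.09, interval 0.01 to 0.18). COX8A, the most abundant subunit in DMSO but not in JIB-04, was at 850 and 686 TPM (-0.31, interval -0.37 to -0.25), COX6B1 at 539 and 450 TPM (-0.26) and COX7C at 746 and 623 TPM (-0.26). The 5 subunits COX5A, NDUFA4, COX7A2, COX6A1 and COX6C lay between -0.12 and 0.03. COX7A2L, which encodes a factor of respiratory supercomplexes and is grouped here apart from the complexes, was at 186 and 203 TPM (0.12, interval 0.04 to 0.20).

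COX4I2, the hypoxia-responsive form of subunit 4 (chromosome 20, 30225691 to 30232800), was listed at 0 in both libraries. A count of 0 allows up to 3 fragments, which would be 0.37 TPM in DMSO and 0.45 TPM in JIB-04, so a level below that was not detectable at this depth, and no fold is given. COX6A2 and COX7A1 are the heart and skeletal muscle forms of their subunits. COX6A2 was listed at 0 in both libraries, and COX7A1 at 0.28 and 0.12 TPM from an estimated 3 and 1 fragments (log2 ratio -0.18, interval -0.52 to 0.40). COX8C, a testis form, and ATP5MGL, an intronless copy of ATP5MG, were also listed at 0 in both.

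The isoforms COX7B2 and COX6B2, known from testis and from tumours, were detected and were lower in the JIB-04 library. COX7B2 (chromosome 4, 46736847 to 46911252) was at 70.8 TPM in DMSO and 31.8 TPM in JIB-04 (log2 ratio -1.13, interval -1.38 to -0.88), while COX7B had a ratio of 0.09. COX7B2 thus held 12.9% of the summed TPM of the pair in DMSO (exact interval 11.8 to 14.1%) and 5.87% in JIB-04 (5.04 to 6.79%). COX6B2 was at 7.46 and 3.51 TPM (-0.91, interval -1.29 to -0.55), 1.37% and 0.775% of the pair with COX6B1.

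NDUFA4L2 was the 1 member past 2-fold in the upward direction. It was listed at 1.43 TPM in DMSO and 5.91 TPM in JIB-04, from an estimated 20 and 69 fragments (log2 ratio 1.51, interval 1.01 to 1.99), which is percentile 97.6 among all described genes. Its paralog NDUFA4, now counted with complex IV, was at 180 and 172 TPM (-0.06, interval -0.13 to -0.00082, and 0.088 after the scaling to well-expressed genes). With a pseudocount of 5, which weighs on low levels, the ratio of NDUFA4L2 was 0.76 and no longer past 2-fold. NDUFA4L2 therefore made up 0.788% of the TPM of the pair in DMSO (exact interval 0.482 to 1.21%) and 3.32% in JIB-04 (2.59 to 4.17%). The gene lies on the minus strand of chromosome 12 (57628686 to 57634475 of hg19) with 5 exons. With the coverage of each exon divided by the library's summed transcript coverage, on the scale of TPM, all 5 exons were higher in JIB-04, from 1.69 to 5.82 in the second exon, 0.668 to 7.32 in the third, 1.84 to 6.55 in the fourth and 1.405 to 5.83 in the last. The first exon has 14 bases and differed little, at 0.416 and 0.539.

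**Figure D4:**
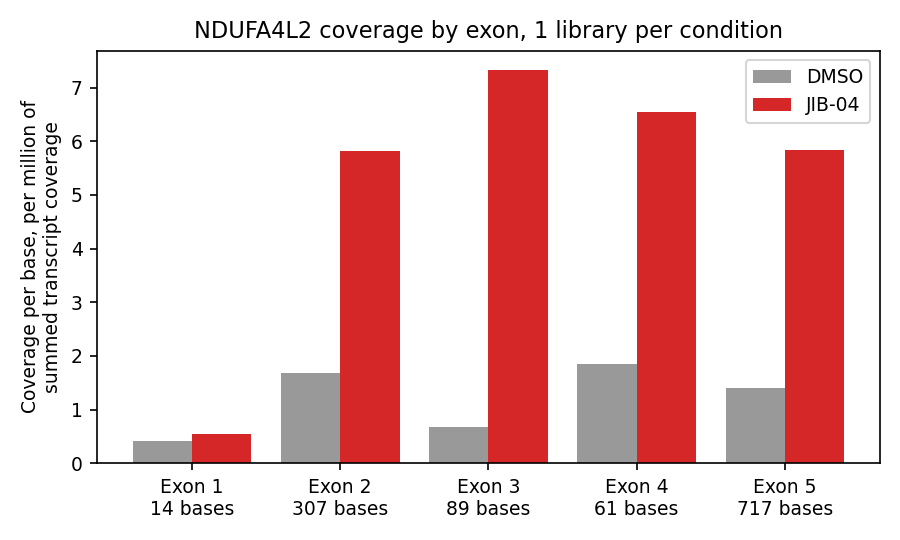
Coverage per base of the 5 exons of NDUFA4L2 (5′ to 3′, with their lengths), divided by each library's summed transcript coverage and scaled as TPM, in the DMSO library (grey bars) and the JIB-04 library (red bars), with 1 library per condition and no error bars. The JIB-04 bars stand between 5.82 and 7.32 in exons 2 to 5 and the DMSO bars between 0.668 and 1.84.

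RefSeq promoter windows of 300 bases (250 before and 50 after a start, GRCh38.p14) were found for 84 of the 102 members, in 103 windows, and were searched on both strands for short motifs. The core letters of the HIF element, ACGTG or GCGTG, were in 62.1% of the members' windows and in 48.4% of all 35116 windows, while the share among windows of described genes, 60.6%, was close to that of the members. The 2 windows of NDUFA4L2 overlap and hold the same 2 matches, shown 5′ to 3′ on the strand of the gene, with the motif or its reverse complement in capitals, because this is the member that stood highest:
NDUFA4L2 (chr12:57240949-57240978, minus strand): tctgtatctccgGCGTGtggttagtgtgtg
NDUFA4L2 (chr12:57240765-57240794, minus strand): gggtgtgcctccGCGTGggggcgtttccgt
The share with these letters was not computed by direction of the ratio. Of the members that stood lower, COX7B2 had no match and ATP5MC3 had no window. The letters were also found in windows of NDUFB8 (0.70), which stood higher, and of the lower members NDUFAF4, NDUFAF5 and NDUFS8. Further matches were in lower members such as ATP5MC1, where the palindrome CACGTG counts on both strands, and NDUFV1:
ATP5MC1 (chr17:48892779-48892808, plus strand): gaaggtccaggaCACGTgggtgggggaagc
NDUFV1 (chr11:67606888-67606917, plus strand): ctggcgtcgggcGCGTGacgtctttcctgc
A match is a description of the letters and not a site of binding.

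The element of NRF1, a factor known for respiratory chain promoters, was searched as GCATGCGC. It was in 17.5% of the members' windows, in 4.90% of those of described genes and in 3.05% of all windows. The letters CCGGAAG of the factor GABP were in 24.3%, 16.8% and 10.3%, and the letters AAGATGGCG of YY1 in 12.6%, 3.35% and 1.75%. The NRF1 letters stood beside the start of both NDUFAF genes that passed 2-fold, and the YY1 letters just after that of NDUFB8:
NDUFAF4 (chr6:96897867-96897896, minus strand): ccctcacttgtGCGCATGCtccgggtgtcc
NDUFAF5 (chr20:13785015-13785044, plus strand): gccgcgctggcGCATGCGCacaaaaagcgc
NDUFB8 (chr10:100529835-100529864, minus strand): gaagaaggtgAAGATGGCGgtggccagggc
Windows of 1 gene can overlap, and no test of these shares was made. The NRF1 letters were also in windows of members near or above 0, such as NDUFB4 (-0.03) and COX5B (0.18). The windows of ATP5MC1, NDUFS8 and NDUFV1 did not hold them. The YY1 letters were also in windows of the lower members NDUFA7 (-0.71) and NDUFS7 (-0.68), and not in another window of NDUFB8. Whether the letters go with the ratios was not tested. NRF1 itself was at 11.7 TPM in DMSO and 14.0 TPM in JIB-04 (0.24), YY1 at 77.7 and 98.8 TPM (0.34), and GABPA at 20.5 and 13.7 TPM (-0.55).

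Complex V held the largest differences among the structural subunits, and these lay in the c ring. The genes ATP5MC1, ATP5MC2 and ATP5MC3 encode the same mature c subunit behind different mitochondrial targeting peptides. ATP5MC1 (chromosome 17, 46970148 to 46973232) was at 283 TPM in DMSO and 99.1 TPM in JIB-04 (log2 ratio -1.50, interval -1.64 to -1.37). ATP5MC3 (chromosome 2, 176040986 to 176046490) was at 164 and 65.2 TPM (-1.32, interval -1.39 to -1.24), and ATP5MC2 (chromosome 12, 54058944 to 54070512) at 422 and 278 TPM (-0.60, interval -0.67 to -0.53). Their summed level was 869 TPM in DMSO and 442 TPM in JIB-04, a ratio of 0.509.

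The balance among the 3 genes differed as well. ATP5MC2 held 48.6% of their summed TPM in DMSO (exact interval 47.7 to 49.5%) and 62.8% in JIB-04 (61.5 to 64.1%). ATP5MC1 held 32.6% and 22.4%, and ATP5MC3 18.8% and 14.7%. Within ATP5MC3 the most abundant transcript changed from NM_001689, with 49.98% of the gene in DMSO and 34.5% in JIB-04, to NM_001002258, with 31.8% and 43.9%, and each of the 3 transcripts of ATP5MC3 was lower in JIB-04. RefSeq names 8 pseudogenes of ATP5MC1, 5 of ATP5MC2 and none of ATP5MC3.

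The catalytic F1 head was lower in all 5 subunits, from -0.66 to -0.24, against 60.3% of all described genes below 0. ATP5F1D, the delta subunit, was at 176 TPM in DMSO and 111 TPM in JIB-04 (-0.66), and ATP5F1A, the alpha subunit, at 583 and 378 TPM (-0.62, interval -0.66 to -0.58). ATP5F1B, the catalytic beta subunit and the most abundant member of all, was at 1174 and 970 TPM (-0.28, interval -0.30 to -0.25). ATP5F1C, the gamma shaft, had a ratio of -0.35, and ATP5F1E, the epsilon subunit, one of -0.24, with 66.3% of its exonic bases shared with a readthrough gene.

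The peripheral stalk, which holds the head still against the ring, had ratios on both sides of 0. ATP5PB was at 75 TPM in DMSO and 45.1 TPM in JIB-04 (-0.72, interval -0.83 to -0.61) and ATP5PD at 351 and 234 TPM (-0.58). ATP5PO, the subunit that joins the stalk to the head, was higher in JIB-04, at 364 and 431 TPM (0.24, interval 0.17 to 0.31). The small membrane subunits lay between ATP5MG, at 205 and 157 TPM (-0.39), and ATP5MF, at 586 and 599 TPM (0.03, interval -0.04 to 0.10). ATP5IF1, which blocks ATP hydrolysis by the enzyme, was at 252 and 158 TPM (-0.67, interval -0.78 to -0.56).

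**Figure D5:**
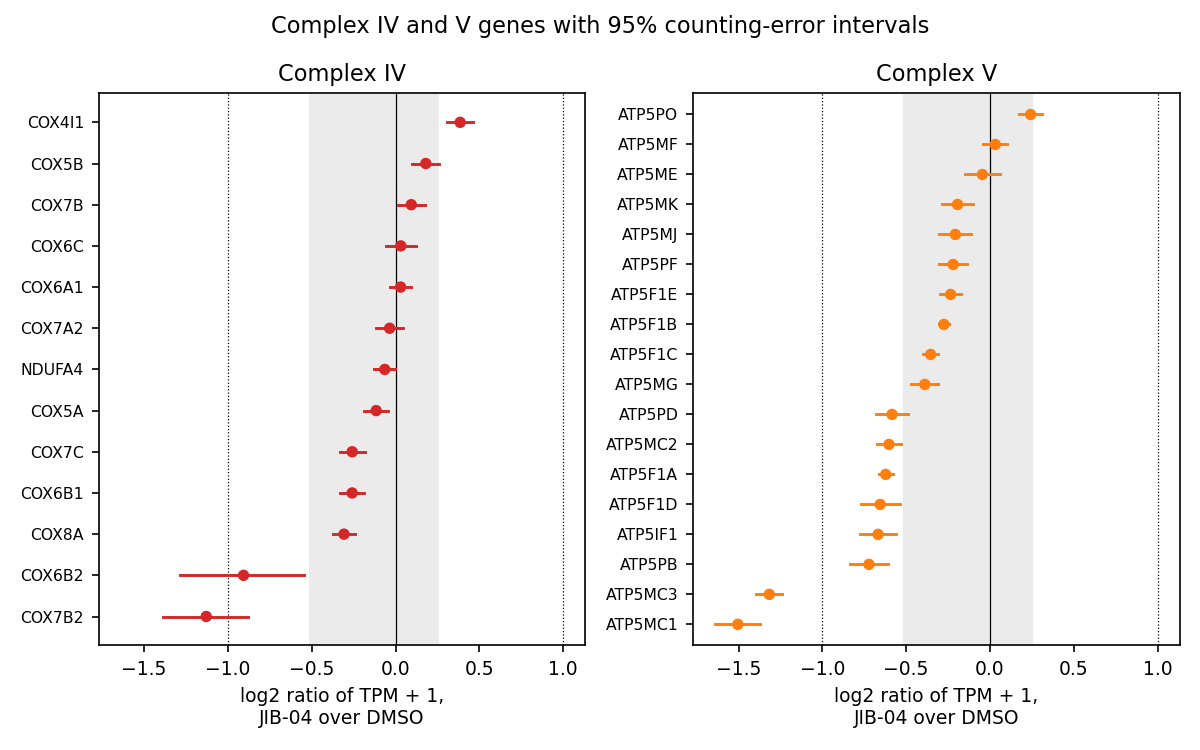
log2 ratio of TPM + 1, JIB-04 over DMSO, for the 13 described genes of complex IV (left) and the 18 of complex V (right). Points are genes, horizontal bars their 95% counting-error intervals, the grey band the middle 50% of all described genes, and dotted lines mark 2-fold. The ubiquitous subunits of complex IV lie within the band except COX4I1, while ATP5MC1 and ATP5MC3 lie beyond 2-fold.

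The remaining members are transcripts that carry no respiratory subunit of their own. The readthrough NDUFC2-KCTD14 was listed at 2.67 TPM in DMSO and 0.061 TPM in JIB-04, from an estimated 75 and 1 fragments (log2 ratio -1.79, interval -1.89 to -1.51). All its exonic bases are shared with other genes, so its level is uncertain, and with a pseudocount of 5 its ratio was -0.60. NDUFC2 itself was at 51.1 and 43.5 TPM (-0.23). The readthrough ATP5MF-PTCD1 was at 4.24 and 3.75 TPM (-0.14). The long noncoding NDUFB2-AS1, NDUFA6-DT and NDUFV2-AS1 were at or below 2.85 TPM with intervals that held 0, and NDUFV1-DT was below 1 TPM in both libraries.

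Genes that feed or serve the chain gave mixed values. Of all described genes, 60.3% were below 0, with a median of -0.15. Of 13 ubiquinone synthesis genes 11 were below 0 (median -0.38), from COQ3, a methyltransferase, at 50.03 TPM in DMSO and 17.9 TPM in JIB-04 (-1.43, interval -1.64 to -1.22), to COQ8A at 5.55 and 10.2 TPM (0.78). Of 8 other electron donors to ubiquinone, ETFB, a subunit of the electron transfer flavoprotein, was at 138 and 56.7 TPM (-1.27), and PRODH, proline dehydrogenase, at 21.8 and 34.7 TPM (0.65). The carriers that exchange ADP for ATP went both ways. SLC25A5 was at 418 and 204 TPM (-1.03, interval -1.10 to -0.97), SLC25A6 at 400 and 316 TPM (-0.34), and SLC25A4, the heart and muscle form, at 8.59 and 19.4 TPM (1.09, interval 0.94 to 1.24).

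Regulators of these genes, 11 of 13 described, had a median of -0.22. None passed 2-fold, against 5.99% of all described genes upward and 6.88% downward. TFAM, which packages mitochondrial DNA and starts its transcription, was at 28.7 TPM in DMSO and 15.6 TPM in JIB-04 (-0.84, interval -0.96 to -0.73), ESRRA, a nuclear receptor that drives oxidative genes, at 69.9 and 40.0 TPM (-0.79), and TFB2M at 49.1 and 28.7 TPM (-0.75). TFB1M was at 6.16 and 8.40 TPM (0.39) and POLRMT, the mitochondrial RNA polymerase, at 58.9 and 72.0 TPM (0.29). The coactivators PPARGC1A and PPARGC1B were below 1 TPM in both libraries. Of 5 hypoxia-linked genes that act on the chain, LONP1, the protease known to degrade COX4I1 in low oxygen, was at 119 and 268 TPM (1.17, interval 1.11 to 1.22), and MIR210HG, the host of a microRNA against the iron-sulfur scaffold ISCU, at 10.7 and 28.7 TPM (1.34, interval 1.15 to 1.53). ISCU was at 40.1 and 34.2 TPM (-0.22), CHCHD2 at 876 and 777 TPM (-0.17), and HIGD1A, a hypoxia-induced partner of complex IV, at 122 and 83.0 TPM (-0.55, interval -0.62 to -0.47). None of the 13 subunits encoded by mitochondrial DNA was found by symbol among the listed genes, so they were not analysed here.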

How the data were processed

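Tools listed in the processing notes were StringTie 1.3.3b, HISAT2 2.0.5, Bowtie2 2.2.6, FastQC 0.11.5 and Trimmomatic 0.32, with the build hg19. The deposited files hold, for each annotated RefSeq transcript, the coverage, FPKM and TPM as the authors' StringTie run computed them, with no read counts. The libraries were stranded and poly(A)-selected. Members and gene lists were chosen with earlier results of these data known.

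TPM was summed per Entrez gene, and ratios were taken of TPM + 1. Genes reaching 1 TPM in at least 1 library were described, and ratios from 2 upward or 0.5 downward were called. A fragment was taken as 202 aligned bases, from which fragment numbers were estimated. The 95% exact binomial intervals (conditional for ratios, Clopper-Pearson for shares of a pair) cover counting error only. Any member may be named; those given are NDUFA4L2, COX4I2 and their paralogs, members past 2-fold, and per group the highest, the 3 highest and the 3 lowest ratios at a mean TPM of at least 5. Symbols and promoter sequences come from RefSeq GRCh38.p14, and gene coordinates from the files (hg19). A single member is not reported here by name. The procedure was tested on simulated data. Python 3.11.15, numpy 2.4.6, pandas 2.3.3, SciPy 1.17.1 and matplotlib 3.10.9 were used.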

Additional observations from a re-analysis of the deposited data

How the results depend on the processing

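Other pseudocounts, FPKM, scaling, quantile normalization, the most abundant transcript, other filters and thresholds, and the removal of members sharing over 50% of their exonic bases were tried. No value past 2-fold changed direction. With a pseudocount of 5, the counts of higher and lower members were 0 and 5, against 3.04% and 2.83% of all genes. NDUFA4L2 then had 0.76 and NDUFC2-KCTD14 -0.60, both short of 2-fold. A limit of 1.5-fold gave 2 higher (2.08%, against 12.8% of all genes) and 24 lower (25%, against 21.0%), and one of 3-fold 0 higher (against 2.201%) and 1 lower (1.04%, against 1.07%). Scaling to the median of genes reaching 10 TPM in both libraries shifted log2 ratios by 0.15. It left 4 members lower, against 4.70% of all genes. The medians were then -0.15 for all members and -0.19, -0.17, 0.058, 0.088 and -0.22 for complexes I to V. Of all genes called, 46.5% were higher, and 62.0% after that scaling and 57.0% after quantile normalization. Members by current symbol alone, a choice made after seeing the data, left 0 higher, against 5.99% of all genes. Also chosen then was leaving out the 3 c-ring genes, the 7 core subunits or COX6B2 and COX7B2. These removals gave medians of -0.28 for complex V, -0.28 for complex I and -0.04 for complex IV, in that order. COX4I2, listed at 0, gave no ratio under any setting. No paired analysis was possible because each condition had 1 library, and for the same reason no library could be left out. Depth limits NDUFA4L2 and the other members with few fragments, 7 of which had under 100 in either library.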
